A study of Mus musculus with 3 samples.

Results

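The genes described here encode the proteins that hydroxylate, fold and crosslink collagen. They were taken by their symbols and held the lysyl oxidase family (*Lox*, *Loxl1*, *Loxl2*, *Loxl3* and *Loxl4*), the prolyl 4-hydroxylase subunits *P4ha1* and *P4ha2*, the lysyl hydroxylases *Plod1* and *Plod2*, and the collagen chaperone *Serpinh1*. These were 10 of the 22911 genes named on the array, read by 15 of its 32989 named probes. The mRNA levels were compared between the murine colon adenocarcinoma line Colon26 and a pair of its sublines, LuM1, which is rapidly metastatic, and NM11, which is slowly metastatic. No line carried a stated genetic change or treatment, and each was cultured for 3 days before 0.1 µg of total RNA was labelled and hybridized. There was 1 array per cell line, and the 3 arrays shared a slide. Since each line gave a single RNA sample, no difference could be checked against replicates, and no test was possible.

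Collagen chains are modified in the endoplasmic reticulum before they leave the cell. Prolyl 4-hydroxylase makes the hydroxyproline that keeps the triple helix stable, lysyl hydroxylases modify the lysines from which crosslinks later form, and the chaperone HSP47, encoded by *Serpinh1*, binds the folded helix. After secretion and trimming, the copper-dependent lysyl oxidases convert lysines of collagen and elastin to aldehydes, which then join neighbouring molecules. Stiffening of the matrix by such crosslinks is a known feature of solid tumors, and several of these enzymes are known targets of hypoxia-inducible factor (HIF). In colon tumors fibroblasts are the usual source of fibrillar collagen and of most of these enzymes.

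A signal below is the brightness of a probe after scaling of the arrays to a common 75th percentile (585), and the error is the one the scanner software gives, about 10% of the signal plus a constant. Levels are compared between lines for the same probe, never between genes, because probes differ in their brightness. Ratios are on the log2 scale, and at least 2-fold was the threshold for calling a gene higher or lower. A probe that the software did not call well above background on an array gives only a bound there, set by the lowest signal that was well above background (26.4 for Colon26, 20.1 for LuM1 and 19.6 for NM11). Where a gene had several probes, the brightest was used. The other probes of the 10 genes are given beside it. The share of probes well above background was 49.9% in Colon26, 53.8% in LuM1 and 52.5% in NM11 cells.

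The colon origin of the lines was checked against markers of cell types. Of 9 colon epithelial markers, *Cdh1* (E-cadherin), *Krt18*, *Krt19* and *Vil1* were not well above background on any array, and *Epcam* was so only in LuM1 cells, with a signal of 28.0. The epithelial markers that were well above background summed to a signal of 1215 in Colon26 cells, 479.9 in LuM1 cells and 455 in NM11 cells. These sums were over 4, 5 and 4 genes and followed *Krt20*, with signals of 651, 54.5 and 157, and *Cdx2*, with 443, 232 and 167. *Krt8* went the other way, with 28.9 in Colon26, 108 in LuM1 and 37.1 in NM11 cells, though its ratio over Colon26 fell under 2-fold with the normexp correction described below. Of 9 mesenchymal markers, 6 were well above background in Colon26 cells and 8 in each subline. Their signals summed to 115539, 143885 and 138963 in Colon26, LuM1 and NM11 cells. *Vim* held the largest part of each sum, with 102137, 80065 and 98371. *Thy1*, a fibroblast surface protein, and *Dcn*, the matrix proteoglycan decorin, were well above background in both sublines but not in the parental line. Both entered only the sums of the sublines, with 19560 and 15416 for *Thy1* and 27503 and 9599 for *Dcn* in LuM1 and NM11 cells. *Pdgfra* was higher in both sublines too, with 218, 3965 and 1286 in Colon26, LuM1 and NM11 cells. *Fap* went the other way in NM11 cells, with 114, 102 and 46.1 in the same order. Its level there, 2.48-fold below Colon26 cells, fell under 2-fold with the normexp correction. Among 6 leukocyte markers *Ptprc* (CD45) and *Adgre1* were not well above background on any array, whereas *Cd68*, a lysosomal protein of macrophages, exceeded its Colon26 level 30.5-fold in LuM1 cells. Some markers thus differed between the lines, whereas others, such as *Vim*, *Pdgfrb* and *Acta2*, stayed within 2-fold in all comparisons. The part of the markers in the results for the collagen enzymes was not tested. In such bulk RNA, fewer cells of a type and less RNA per cell cannot be told apart.

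All arrays gave a level for 9 of the 10 genes, and *Lox* had none. *Loxl1* and *Plod1* set LuM1 cells apart from both slowly metastatic lines, in opposite directions: *Loxl1* was 21.2-fold lower than in Colon26 cells and 55.4-fold lower than in NM11 cells, and *Plod1* was 2.40-fold and 2.88-fold higher. *Loxl4* was highest in Colon26 cells and *Plod2* was lowest in NM11 cells. By their brightest probes, the other 5 measured genes (*Loxl2*, *Loxl3*, *P4ha1*, *P4ha2* and *Serpinh1*) stayed within 2-fold in all 3 comparisons. This held under the scaling described above, whereas *Loxl3* and *P4ha2* passed 2-fold under some of the others. The dimmer *Loxl2* probe was at least 2-fold higher in both sublines than in Colon26 cells.

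**Figure D1:**
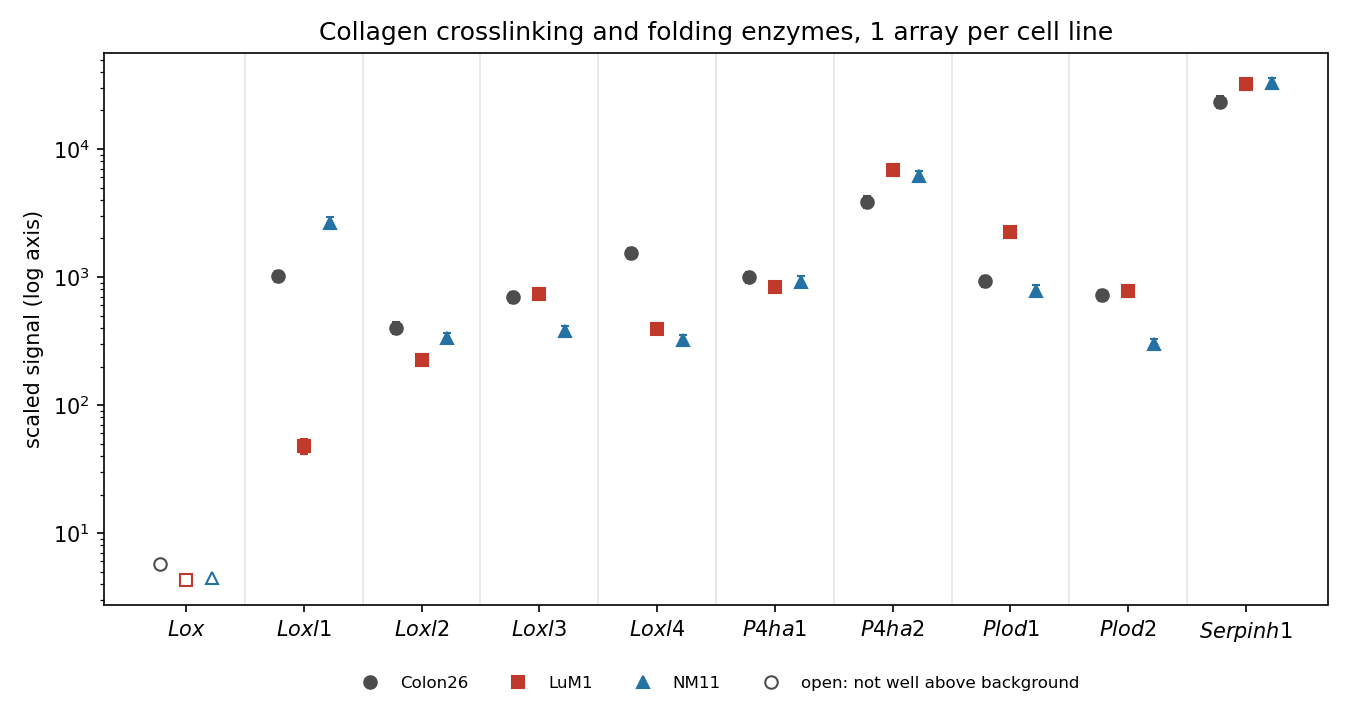
Scaled signal (log axis) of the brightest probe of each of the 10 genes in Colon26 (circles), LuM1 (squares) and NM11 (triangles) cells, 1 array each. Vertical bars are the scanner error, and open symbols, drawn without one, are not well above background. The LuM1 square of *Loxl1*, at 48.0, lies far below the Colon26 circle at 1017 and the NM11 triangle at 2659.

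In the comparison of LuM1 with its parental line, 1 of the 9 measured genes was at least 2-fold higher in LuM1 cells (*Plod1*) and 2 were at least 2-fold lower (*Loxl1* and *Loxl4*). Over all 14353 genes well above background in 1 or both of these lines, 12.9% were called higher and 11.7% lower, bounds included. The shares of all genes below were taken in the same way. In the comparison of LuM1 with NM11, 2 of 9 were higher in LuM1 cells (*Plod1* and *Plod2*), against 11.1% of all genes, and 1 was lower (*Loxl1*), against 8.5%. In the comparison of NM11 with Colon26, 1 of 9 was higher in NM11 cells (*Loxl1*), against 8.17% of all genes, and 2 were lower (*Loxl4* and *Plod2*), against 7.74%. In LuM1 cells against both other lines, 7.8% of genes were higher and 4.28% were lower, and the collagen enzymes gave 1 gene in each direction. With so few genes, these shares cannot be set apart from those of all genes. The median log2 ratio of the 9 genes was 0.09 for LuM1 over Colon26, 0.17 for LuM1 over NM11 and -0.26 for NM11 over Colon26, beside -0.13, -0.11 and -0.02 over all genes measured in both lines.

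**Figure D2:**
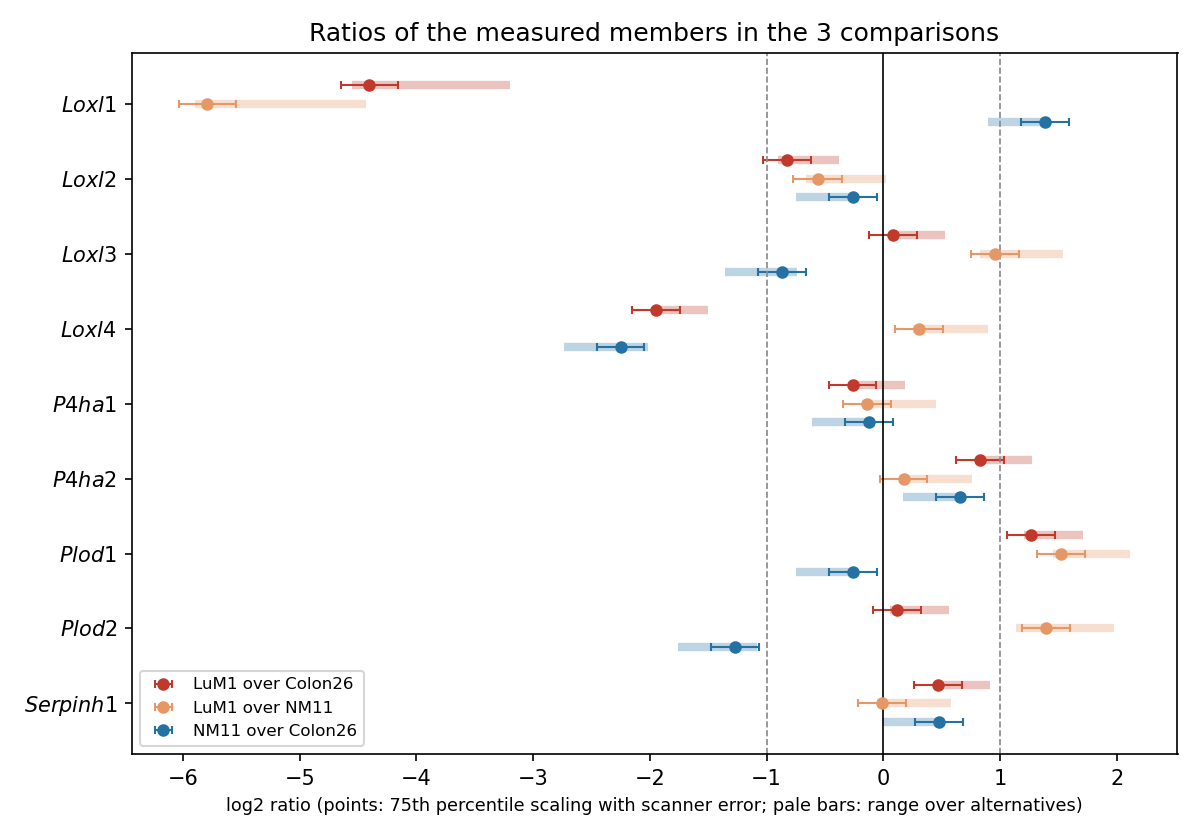
log2 ratios of the 9 measured genes for LuM1 over Colon26, LuM1 over NM11 and NM11 over Colon26. Points show the ratios after scaling to the 75th percentile, thin bars the scanner error, pale bars the range over the other scalings and background corrections, and dashed lines a 2-fold difference. The *Loxl1* ratio of LuM1 over NM11 reaches -5.79, whereas the points of *P4ha1*, *P4ha2* and *Serpinh1* all lie between the dashed lines.

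The lysyl oxidase family came first. *Lox*, the founding member, was read by a pair of probes (A_55_P2911063 and A_66_P138929), and neither was well above background on any array. Their signals were 5.70 and 5.45 in Colon26 cells, 4.28 and 4.15 in LuM1 cells, and 4.45 and 3.96 in NM11 cells. All of these lay under the lowest signal that was well above background on their array. No level and no ratio could therefore be given for *Lox*.

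*Loxl1*, the family member best known for crosslinking elastin, was read by 1 probe (A_51_P304239, RefSeq NM_010729). Its signal was 1017 ± 102 in Colon26 cells, 48.0 ± 6.49 in LuM1 cells and 2659 ± 266 in NM11 cells. The order was thus NM11, Colon26 and LuM1, and every neighbour in it differed by more than 2 scanner errors. The log2 ratio of LuM1 over Colon26 was -4.40 with a scanner error of 0.24, and that of LuM1 over NM11 was -5.79 with an error of 0.24. Of 13769 genes with both ratios, 23 others (0.167%) were at least as far lower in LuM1 cells in both comparisons. NM11 cells were 2.62-fold above Colon26 cells, a log2 ratio of 1.39 with an error of 0.20, which became 0.90 when the arrays were scaled to *Hprt*. Since the LuM1 signal was dim, the background correction by normexp, a model of background and signal, brought the ratio over Colon26 to -3.19 and that over NM11 to -4.44.

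The genes whose pattern over the 3 arrays was most like that of *Loxl1* were found by the larger of the differences in both ratios over Colon26, among 12248 genes well above background on every array. *Slit3*, a secreted guidance protein, was nearest, with signals of 2345, 115 and 5033 in Colon26, LuM1 and NM11 cells and a largest difference of 0.28 from *Loxl1*. *Prss23*, a secreted serine protease, followed with signals of 1306, 62.9 and 2462 and a largest difference of 0.47. *Olfr978*, an olfactory receptor gene, had signals of 457, 24.8 and 829 and a largest difference of 0.53. With 3 arrays, likeness here means only that all of these probes were dim in LuM1 cells and brighter in NM11 than in Colon26 cells.

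*Loxl4* was the family member that was highest in the parental line. It was read by 3 probes, and the brightest (A_55_P2044143) gave 1528 ± 153 in Colon26 cells, 396 ± 39.8 in LuM1 cells and 321 ± 32.3 in NM11 cells. By this probe the sublines lay close together, with a log2 ratio of LuM1 over NM11 of 0.30 and an error of 0.21. Scaled to *Hprt*, that ratio became 0.89. LuM1 cells were 3.86-fold and NM11 cells 4.76-fold below Colon26 cells. The probe A_66_P107231 gave 1132, 453 and 265 in Colon26, LuM1 and NM11 cells, and A_52_P342526 gave 220.5, 78.9 and 62.0. The log2 ratio of LuM1 over NM11 was 0.77 by the former, with an error of 0.21, and 0.35 by the latter, with an error of 0.24. All 3 probes thus placed Colon26 above LuM1 and LuM1 above NM11, and LuM1 cells were 2.50-fold to 3.86-fold lower than Colon26 cells over the probes. NM11 cells were 3.56-fold to 4.76-fold lower.

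*Loxl2*, which acts on collagen IV of basement membranes among other substrates, differed between its probes. The brighter one (A_55_P2131348) gave 401 ± 40.5 in Colon26 cells, 226 ± 23.0 in LuM1 cells and 334 ± 33.6 in NM11 cells. By that probe LuM1 cells were 1.77-fold below Colon26 cells and 1.48-fold below NM11 cells, although scaling to *Hprt* turned the latter log2 ratio from -0.56 to 0.03. The dimmer one (A_52_P480351) was not well above background in Colon26 cells, where its signal was 12.4, and gave 52.9 ± 7.09 in LuM1 cells and 56.8 ± 7.21 in NM11 cells. By the dimmer probe the sublines were at least 2.0-fold (LuM1) and at least 2.15-fold (NM11) higher than Colon26 cells, the opposite direction to the brighter probe. The direction for *Loxl2* between the sublines and Colon26 was therefore not settled.

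*Loxl3*, a relative of *Loxl2* with the same scavenger receptor domains, gave 693 ± 69.6 in Colon26 cells, 736 ± 73.7 in LuM1 cells and 379.7 ± 38.2 in NM11 cells. LuM1 and Colon26 cells did not differ beyond the scanner error (log2 ratio 0.09), and NM11 cells were 1.94-fold below LuM1 cells and 1.83-fold below Colon26 cells. The ratio of LuM1 over NM11, 0.95 on the log2 scale, lay just under the 2-fold threshold and passed it under 4 of 9 other scalings and corrections. That of NM11 over Colon26, -0.87, passed it in the lower direction under 2 of the 9.

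**Figure D3:**
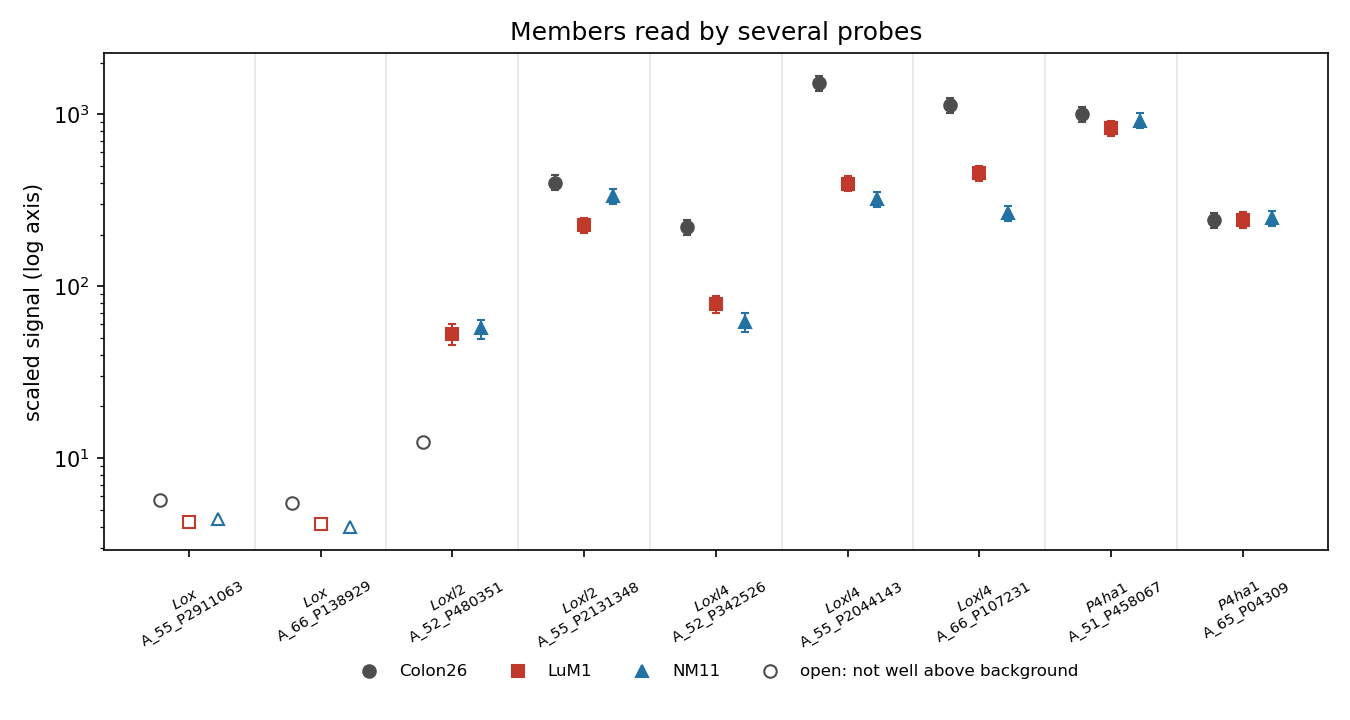
Scaled signal (log axis) of every probe of the 4 genes read by several probes, with the probe name under each gene and Colon26 as circles, LuM1 as squares and NM11 as triangles. Bars are the scanner error, and open symbols, drawn without one, are not well above background. The 3 *Loxl4* probes share an order, whereas the *Loxl2* probes differ in where Colon26 lies.

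Among the hydroxylases, *Plod1* differed most in LuM1 cells. It encodes the lysyl hydroxylase that acts mainly on the helical part of collagen. Its probe (A_66_P125220, RefSeq NM_011122) gave 934 ± 93.6 in Colon26 cells, 2244 ± 224 in LuM1 cells and 781 ± 78.2 in NM11 cells. LuM1 cells stood above both other lines, which differed from each other by less than 2 scanner errors. The log2 ratio was 1.26 over Colon26 and 1.52 over NM11, each with an error of 0.20. Over the other scalings and corrections the former lay between 1.21 and 1.71 and the latter between 1.45 and 2.11. Of the 13769 genes with both ratios, 729 others (5.29%) were at least as far higher in LuM1 cells.

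*Plod2*, the lysyl hydroxylase that acts on the ends (telopeptides) of collagen chains, had another pattern. Its signal was 719 ± 72.2 in Colon26 cells, 781 ± 78.2 in LuM1 cells and 298 ± 30.1 in NM11 cells. NM11 cells were thus the low ones, 2.41-fold below Colon26 cells and 2.62-fold below LuM1 cells, whereas LuM1 and Colon26 cells lay within the scanner error. The NM11 level gave a log2 ratio over Colon26 of -1.27 with an error of 0.21, which kept its side of the 2-fold threshold under all 9 other scalings and corrections, as did that of LuM1 over NM11 (1.39).

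The prolyl 4-hydroxylase subunits differed less. *P4ha2* gave 3873 ± 387 in Colon26 cells, 6886 ± 689 in LuM1 cells and 6105 ± 610.5 in NM11 cells. Both sublines stood above Colon26 cells, by 1.78-fold (LuM1) and 1.58-fold (NM11), and did not differ from each other beyond the scanner error. The ratio of LuM1 over Colon26, 0.83 on the log2 scale, reached 2-fold with quantile normalization and with the authors' processed values. *P4ha1* gave 1002 ± 100.4, 835 ± 83.6 and 921 ± 92.2 in Colon26, LuM1 and NM11 cells with its brighter probe, and 243, 244 and 249.8 with the other. No difference between lines exceeded 2 scanner errors for *P4ha1*, and the sign of both LuM1 ratios turned under other scalings.

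*Serpinh1* gave 23387 ± 2339 in Colon26 cells, 32294 ± 3229 in LuM1 cells and 32551 ± 3255 in NM11 cells. The sublines were level with each other and 1.38-fold (LuM1) and 1.39-fold (NM11) above Colon26 cells, a difference of more than 2 scanner errors. That level depended on the scaling. The log2 ratio of LuM1 over NM11, -0.01, became 0.32 with quantile normalization, 0.40 with the authors' processed values and 0.58 with *Hprt*. Scaled to *Hprt*, the log2 ratio of NM11 over Colon26 turned from 0.48 to -0.01, while that of LuM1 over Colon26 kept its sign under every scaling run.

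Promoter sequences of RefSeq (assembly GRCm38.p6) were matched for 5 of the 10 genes, *Loxl4*, *P4ha1*, *P4ha2*, *Plod1* and *Serpinh1*, and not for *Lox*, *Loxl1*, *Loxl2*, *Loxl3* and *Plod2*. The 250 bases before the annotated start are shown for *Plod1* and *P4ha2*, the matched hydroxylases with their highest signal in LuM1 cells. They are also shown for *Loxl4*, which was lower in both sublines. They lie at chr4:147936777-147937026 (minus strand), chr11:54100674-54100923 (plus strand) and chr19:42612807-42613056 (minus strand). Each is written 5′ to 3′ along the strand of its gene, and capitals mark the core of the HIF response element, ACGTG or GCGTG, on either strand (CACGT and CACGC on the other).
*Plod1*: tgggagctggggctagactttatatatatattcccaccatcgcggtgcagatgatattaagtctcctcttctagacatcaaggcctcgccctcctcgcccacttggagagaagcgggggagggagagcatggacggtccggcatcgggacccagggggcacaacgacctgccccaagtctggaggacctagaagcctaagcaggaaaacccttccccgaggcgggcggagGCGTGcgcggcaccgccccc
*P4ha2*: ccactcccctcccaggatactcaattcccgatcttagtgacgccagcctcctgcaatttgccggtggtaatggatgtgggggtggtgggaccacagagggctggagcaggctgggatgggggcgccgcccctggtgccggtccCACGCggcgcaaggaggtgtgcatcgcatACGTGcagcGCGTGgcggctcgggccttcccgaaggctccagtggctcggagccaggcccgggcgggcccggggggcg
*Loxl4*: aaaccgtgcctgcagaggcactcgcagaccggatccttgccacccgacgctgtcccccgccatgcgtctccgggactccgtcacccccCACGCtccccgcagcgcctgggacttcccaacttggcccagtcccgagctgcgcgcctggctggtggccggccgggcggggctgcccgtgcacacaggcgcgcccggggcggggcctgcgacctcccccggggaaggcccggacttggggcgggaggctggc
The core stood once in the window of *Plod1*, with its first base 20 bases before the start, once in that of *Loxl4*, at 162 bases, and at 3 places in that of *P4ha2*, at 107, 78 and 69 bases. The windows of *P4ha1* and *Serpinh1* held it too, at 3 places and at 1. Such a core stood in 38.6% of all 32851 promoter windows of the same length. Since all 5 of the 5 matched promoters held the core, there was no member without it for contrast. A link between the core and the ratios was not tested. These matches are letters in a window and not measured binding sites.

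Of the other genes of the pathway, 13 take part in hydroxylation and folding. Of these, 11 were well above background in LuM1 or Colon26 cells, and all 11 were so in both. In LuM1 cells 3 of these were at least 2-fold higher than in Colon26 cells (*P4ha3*, *P3h3* and *Fkbp14*) and none was lower, beside the 12.9% and 11.7% of all genes. Against NM11 cells, 12 were well above background in 1 or both lines. Of these, 2 were higher (*P3h3* and *Fkbp14*) and none was lower, beside 11.1% and 8.5%. Between NM11 and Colon26 cells none differed 2-fold, beside 8.17% higher and 7.74% lower of all genes.

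*Fkbp14*, a prolyl isomerase of the endoplasmic reticulum, gave 344 in Colon26 cells, 1735 in LuM1 cells and 272 in NM11 cells, so that LuM1 cells were 5.04-fold and 6.37-fold higher. Its other probe was well above background only in LuM1 cells. *P3h3*, of the prolyl 3-hydroxylase family, gave 1580.0, 3360.5 and 1653 in Colon26, LuM1 and NM11 cells and was 2.13-fold and 2.03-fold higher in LuM1 cells. The latter ratio fell under 2-fold with the normexp correction and with the percentile taken over distinct probes. *P4ha3*, a further prolyl 4-hydroxylase subunit, was dim, with 33.4, 72.8 and 40.3, and was 2.18-fold and 1.81-fold higher in LuM1 cells. Its log2 ratio over Colon26, 1.12, fell under 2-fold with quantile normalization and, at 0.53, with the normexp correction, and its other probe was not well above background on any array. *P4hb*, the partner subunit of prolyl 4-hydroxylase, differed by at most 1.11-fold between lines, and *Plod3* by at most 1.24-fold. The median log2 ratio of the 11 genes was -0.31 over Colon26 and -0.35 over NM11, below that of all genes, so that the higher genes did not stand for the list.

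Among the pathway lists, the substrates held the widest log2 ratios. Of 5 fibrillar collagen chains, *Col1a1* lay 2.19-fold below Colon26 cells and 2.69-fold below NM11 cells in LuM1 cells, by its brighter probe. The former difference fell under 2-fold with quantile normalization and with the authors' processed values, and the latter with scaling to *Hprt*. *Col1a2*, the partner chain of *Col1a1* in type I collagen, gave 59896 in Colon26 cells, 49.6 in LuM1 cells and 85275 in NM11 cells. *Col3a1* was lowest in Colon26 cells, with signals of 294, 1169.6 and 2655. *Col5a1* stayed within 2-fold, and *Col5a2* was not well above background on any array.

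The proteins that elastic fibres are built from gave a similar spread. *Eln*, which encodes elastin, was not well above background on any array. *Fbln5*, which encodes fibulin-5, a protein that binds both elastin and LOXL1, gave a signal of 5604 in the parental line and 5206 in NM11, and was not well above background in LuM1 cells. The LuM1 level was thus at least 278-fold below that of Colon26 cells and at least 259-fold below that of NM11 cells. With the normexp correction the log2 ratios, -8.12 and -8.01, became -6.54 and -6.40. *Fbn1*, which encodes the microfibril protein fibrillin-1, was 4.85-fold lower in LuM1 and 2.98-fold lower in NM11 than in Colon26 cells. *Efemp2*, which encodes fibulin-4, stayed within 2-fold. Among the members and substrates, *Loxl1*, *Fbln5*, *Col1a2* and, less far, *Col1a1* thus shared a lower level in LuM1 cells against both other lines. Over all genes, 4.28% were at least 2-fold lower against both.

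**Figure D4:**
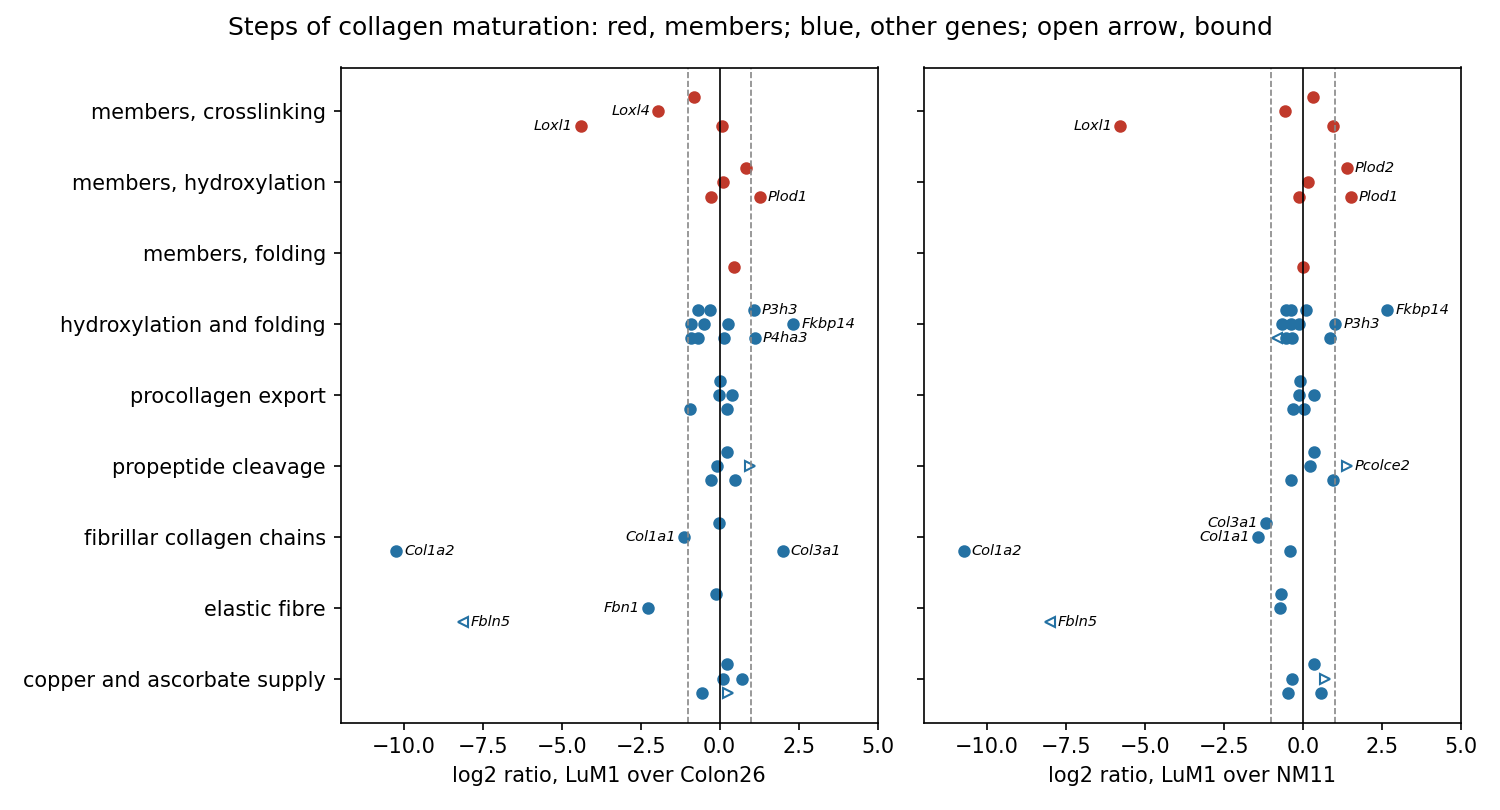
log2 ratio of LuM1 over Colon26 (left) and LuM1 over NM11 (right) for the members (red) and the other genes of collagen maturation (blue), by step, with genes at least 2-fold apart named. Open arrows are bounds, and dashed lines mark 2-fold. *Loxl1*, *Fbln5* and *Col1a2* lie farthest to the left in both panels, and *Fkbp14* lies farthest to the right.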

How the data were processed

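Per the labels and the paper's methods, total RNA of Colon26, LuM1 and NM11 cells was labelled with 1 dye and hybridized to 1 Agilent mouse expression array per line. The intensity of every spot was deposited as written by the scanner software (Agilent Feature Extraction 11.5.1.1), with background subtracted and no scaling between arrays, beside 0 or 1 flags per spot for outliers, saturation and signal well above background. The processed table that the authors deposited holds the same intensity multiplied by a constant of 0.654 (Colon26), 0.829 (LuM1) or 0.706 (NM11), and was used as an alternative.

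Control and outlier spots were left out of the probe values, repeated spots were averaged, and each array was scaled to the 75th percentile of its non-control spots. Of 56605 probes, 32989 were named through RefSeq accessions (assembly GRCm38.p6). No spot of the 10 genes was an outlier or saturated. For a gene with several probes the brightest stood for it, and a probe not well above background entered only as a bound. The genes named were the 10 members, the pathway and marker genes past 2-fold or needed to describe a list, and the 3 genes nearest to the member with the widest range. The members and lists were chosen with earlier results of these data known. The number of arrays limits the precision, and no test was run. The steps were tested on simulated data.

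The alternatives left the arrays unscaled or scaled them to *Hprt*, to the E1A spike-in controls or to the median of measured probes. They also took in quantile normalization, normexp correction with an offset of 50 (run on the median brightness of each spot), the authors' processed values, a 4-fold threshold, the mean over probes, the brightest probe of LuM1 cells, and detection by a looser rule or with dim probes unfiltered. The percentile taken without outlier spots and over distinct probes was tried after seeing the data, and the percentile over all non-control spots was settled on as the main scaling only after both had been run. The tools were R 4.3.3 (limma 3.58.1) and Python 3.11.15 (numpy 2.4.6, pandas 2.3.3, matplotlib 3.10.9).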

Additional observations from a re-analysis of the deposited data

How the results depend on the processing

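The scanner error covers technical error only, dim signals such as *Loxl1* in LuM1 cells depend on the background correction, and 1 array per line leaves the spread between cultures unmeasured. The median log2 ratio over all genes moved from its value at the 75th percentile by 0.45 for LuM1 over Colon26 and by 0.41 for LuM1 over NM11 when the authors' processed values were used. Scaling to *Hprt* moved it by 0.10 for LuM1 over Colon26, by 0.59 for LuM1 over NM11 and by -0.49 for NM11 over Colon26, and the E1A spike-ins moved the last pair of these by 0.30 and -0.28. Without scaling the shifts were 0.11 for LuM1 over Colon26 and 0.18 for LuM1 over NM11. Of the collagen enzymes, 2 in place of 1 exceeded their Colon26 level at least 2-fold in LuM1 cells with quantile normalization and with the authors' processed values, since *P4ha2* joined *Plod1*. With scaling to *Hprt*, 0 in place of 1 were higher in NM11 than in Colon26 cells. At a 4-fold threshold, 0 were higher and 1 (*Loxl1*) was lower in LuM1 cells against the parental line, 0 were higher in LuM1 than in NM11 cells, 0 were higher in NM11 than in Colon26 cells, and 1 (*Loxl4*) was lower. The cause of these moves was the construction of each alternative for the threshold and was not tested for the scalings. The other counts stayed within 1.5 times the reported ones. Among them, *Loxl3* joined the genes higher in LuM1 than in NM11 cells under 4 alternatives. It joined those lower in NM11 than in Colon26 cells under 2 (*Hprt* and the spike-ins). Of 351 log2 ratios of single genes under the alternatives, 283 moved by less than the scanner error, 68 moved by more, and 0 of those at least 2-fold apart changed direction. Part of the 283 could not move at all. All 27 ratios already rested on measured levels, so neither change of the detection rule could alter them. The choice or mean of probes could not alter the 6 genes read by a single probe. The count of 283 therefore overstates how stable the ratios were. No paired analysis was possible because each line had 1 array.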

Other observations

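The genes that export procollagen and those that trim and supply it were largely level between the lines. All 5 genes of procollagen export (*Mia2*, *Mia3*, *Sec23a*, *Sec24d* and *Klhl12*) were well above background on every array and within 2-fold in all 3 comparisons by their brightest probes. Over all genes, 12.9% were higher and 11.7% lower in LuM1 than in Colon26 cells, and 11.1% and 8.5% against NM11 cells. Between NM11 and Colon26 cells the shares were 8.17% and 7.74%. With so few genes, the lists given here cannot be set apart from all genes. *Mia2*, which encodes a receptor that loads bulky cargo at endoplasmic reticulum exit sites, came nearest to the threshold, with 2430.3 in Colon26 cells, 1260.1 in LuM1 cells and 1244 in NM11 cells by its brightest of 4 probes. Between NM11 and Colon26 cells it passed 2-fold without scaling, with *Hprt* and with the spike-ins, and its dimmest probe, not well above background in LuM1 cells, was at least 2.31-fold lower there than in NM11 cells. Of 8 genes of propeptide cleavage, *Tll2*, *Adamts2* and *Adamts3* were not well above background on any array. *Bmp1*, the protease that removes the C-propeptide and also activates lysyl oxidase, gave 3681 in Colon26 cells, 5139 in LuM1 cells and 2639 in NM11 cells. By this brightest of its 3 probes LuM1 cells were 1.95-fold above NM11 cells, which passed 2-fold under 5 of 9 other scalings and corrections, and 1.40-fold above Colon26 cells. The probe A_55_P2006698 gave 548, 1096 and 822 in Colon26, LuM1 and NM11 cells and thus placed NM11 above Colon26 cells, and A_55_P2006708 gave 552, 600.3 and 506. The order of NM11 and Colon26 cells for *Bmp1* was therefore not settled, while all 3 probes were brightest in LuM1 cells. Its enhancer gene *Pcolce2* was well above background only in LuM1 cells (51.6), at least 1.96-fold above Colon26 cells and at least 2.64-fold above NM11 cells. The log2 bounds, 0.97 and 1.40, fell to 0.38 and 0.58 with the normexp correction. The related *Pcolce* differed by at most 1.18-fold.

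Lysyl oxidases need copper, and prolyl and lysyl hydroxylases need ascorbate. Of 5 genes that supply them, none reached 2-fold in any comparison under the main scaling. So few genes cannot be set apart from the shares of all genes given above. Under others *Atp7a* passed it over Colon26 (authors' processed values) and over NM11 (*Hprt*) in LuM1 cells, *Slc23a1* over NM11 in LuM1 cells (both of these settings), and *Slc23a2* in the lower direction for NM11 over Colon26 (*Hprt* and the spike-ins). *Atp7a*, which encodes the pump that loads copper onto secreted enzymes, lay 1.63-fold above Colon26 cells and 1.49-fold above NM11 cells in LuM1 cells. *Slc31a1*, which encodes the copper importer, was highest in NM11 cells, with signals of 859, 1019 and 1427 in Colon26, LuM1 and NM11 cells. *Slc23a2*, which encodes an ascorbate transporter, was highest in Colon26 cells, with 389, 264 and 208.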
